A study of Mus musculus with 9 samples.

Results

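Methyl groups on lysine 4 of histone H3 (H3K4) are added and removed by dedicated enzymes, and 10 genes for these enzymes were followed here in mouse embryonic stem (ES) cells deprived of threonine (Thr) or cysteine (Cys). The 10 were taken by gene symbol from the 20189 genes of the count table, namely 6 methyltransferases (Kmt2a, Kmt2b, Kmt2c, Kmt2d, Setd1a and Setd1b) and 4 demethylases (Kdm5a, Kdm5b, Kdm5c and Kdm1a), and all 10 passed the filter of at least 1 count over all libraries. The cells were wild-type E14, an established mouse ES cell line grown in serum with leukemia inhibitory factor on gelatin. Unstarved cells given medium with all amino acids supplied 3 libraries, cells without Thr for 3 h supplied 3 more and cells without Cys for 3 h another 3. Poly(A) RNA was sequenced with a directional kit, and the 3 groups were compared pairwise, so that both starvations were set against the same unstarved libraries. The labels describe the starvation medium for removal of arginine or leucine. A medium without Cys is described in the study's methods for its cell death assays, and whether the sequenced cells were given it is not stated there.

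H3K4 methylation marks the starts of active genes as the trimethyl form and enhancers as the monomethyl form. SETD1A and SETD1B are the catalytic subunits of the complexes that place most trimethylation, KMT2A (MLL1) and KMT2B (MLL2) act at selected promoters and CpG islands, and KMT2C and KMT2D monomethylate enhancers. The KDM5 enzymes remove the di- and trimethyl forms, and KDM1A (LSD1) removes the mono- and dimethyl forms within complexes that hold CoREST and histone deacetylases. Every methyltransferase uses S-adenosylmethionine as the methyl donor. In mouse ES cells, the enzyme TDH breaks down Thr to supply one-carbon units to that donor, and H3K4 trimethylation in these cells is known to depend on Thr. The data hold mRNA levels, not histone marks or enzyme activity.

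Libraries held 48763102 to 74962733 counts, and the fewest counts for any of the 10 genes were 1018, for Setd1b in Thr-starved library 2. The ES cell markers (Pou5f1, Nanog, Sox2, Zfp42, Esrrb and Klf4) summed to 2910 to 2958 CPM (read counts relative to the library total, with TMM scaling by the trimmed mean of M-values) in unstarved, 3249 to 3286 CPM in Thr-starved and 2973 to 2992 CPM in Cys-starved libraries. Summed fibroblast markers (5 genes) lay at 15.1 to 15.4 CPM in unstarved, 10.1 to 11.4 CPM in Thr-starved and 13.7 to 16.8 CPM in Cys-starved libraries. Summed primitive endoderm markers (4 genes) were at 5.24 to 5.82, 4.43 to 4.97 and 7.13 to 8.79 CPM in the same order, and germ layer and trophoblast markers (5 genes) at 20.7 to 21.5, 24.4 to 28.3 and 25.5 to 26.8 CPM. No marker was at 0 in every library, and the part of these shifts in the results was not tested. In bulk RNA, fewer cells of a type and less RNA per cell cannot be told apart.

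The sequence just upstream of the genes differed widely between members. Of the 10 genes, 7 had a start site entry in RefSeq (GRCm38.p6), and Kmt2b, Setd1b and Kdm5a had none. Windows of 240 bases, from 250 to 11 bases before the start, were searched on both strands for TGATGNAA (the core of the C/EBP-ATF response element of amino acid starvation genes), CCAAT (the NF-Y box) and GGGCGG (the GC box of SP factors), counting overlapping matches of one motif separately. Of 32851 such windows in RefSeq, 3.37% held the first motif, 33% the second and 31.3% the third. Shown are the windows of Kmt2a and Kmt2c, called higher in Thr starvation, and of Kdm5b and Kdm1a, called lower in both starvations. They are given 5′ to 3′ on the strand of the gene, with matches on either strand in capitals. They lie on the minus strand at chr9:44881300-44881539 (Kmt2a), chr5:25498794-25499033 (Kmt2c) and chr4:136602734-136602973 (Kdm1a), and on the plus strand at chr1:134559928-134560167 (Kdm5b).
Kmt2a: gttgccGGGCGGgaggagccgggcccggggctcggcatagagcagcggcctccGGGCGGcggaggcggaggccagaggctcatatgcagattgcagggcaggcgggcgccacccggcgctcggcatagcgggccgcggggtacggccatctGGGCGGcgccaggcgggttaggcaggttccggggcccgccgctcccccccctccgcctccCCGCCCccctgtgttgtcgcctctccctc
Kmt2c: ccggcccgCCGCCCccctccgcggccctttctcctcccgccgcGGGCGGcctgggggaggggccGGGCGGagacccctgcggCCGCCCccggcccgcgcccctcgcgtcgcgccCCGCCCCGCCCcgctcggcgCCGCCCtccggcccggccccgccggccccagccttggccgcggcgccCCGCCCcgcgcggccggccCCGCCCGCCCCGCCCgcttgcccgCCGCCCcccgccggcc
Kdm5b: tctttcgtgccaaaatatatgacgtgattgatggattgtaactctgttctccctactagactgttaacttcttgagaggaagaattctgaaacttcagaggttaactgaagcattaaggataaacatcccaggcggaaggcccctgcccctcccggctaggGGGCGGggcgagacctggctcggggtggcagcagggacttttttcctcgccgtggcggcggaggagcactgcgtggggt
Kdm1a: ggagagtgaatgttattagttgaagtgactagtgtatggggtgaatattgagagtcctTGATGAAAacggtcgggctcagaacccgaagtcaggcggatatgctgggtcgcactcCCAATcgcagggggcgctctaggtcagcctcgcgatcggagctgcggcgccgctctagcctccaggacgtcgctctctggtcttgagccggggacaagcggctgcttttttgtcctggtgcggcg
The Kmt2c window is 91.67% G and C, and 1 of 32851 windows (its own) reached that share, against a median of 52.08%. It holds GGGCGG at 2 places on the strand shown and at 10 places on the other strand. For Kmt2a the window is 77.5% G and C with 3 matches on the strand shown and 1 on the other. The Kdm5b window is 54.17% G and C with 1 GC box. That of Kdm1a, at 58.33%, holds no GC box but 1 TGATGNAA and 1 CCAAT match, both on the strand shown. The window of Kmt2d (68.75% G and C, 4 GC boxes in all, 1 of them on the strand of the gene) held neither of the other motifs. The windows of Setd1a and Kdm5c overlap annotated exons and are not shown. A match describes the letters in this window and is not evidence of binding.

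Per kilobase of exon, 3 of the 4 demethylases were the most abundant of the 10 transcripts in unstarved cells. Kdm1a led at 51.7 ± 1.29 CPM per kb (SD, n = 3), followed by Kdm5c at 36.8 ± 1.07 and Kdm5b at 26.8 ± 0.59 CPM per kb. The methyltransferase Kmt2b came next at 14.5 ± 0.43 CPM per kb, ahead of Kdm5a at 7.87 ± 0.30 CPM per kb. Setd1a (6.67 ± 0.12) and Setd1b (4.42 ± 0.16) followed, and Kmt2d (2.89 ± 0.17), Kmt2a (2.81 ± 0.10) and Kmt2c (2.00 ± 0.17 CPM per kb) were lowest. The libraries of Kmt2d and Kmt2a overlapped, and no other neighbours in this order did. Dividing by the longest transcript in place of all exons put Kdm5b (50.9 CPM per kb) above Kdm5c (40.6 CPM per kb). Of the 6795 exonic bases of Setd1a, 3523 overlap Gm49388, a gene model on the same strand. How such reads were assigned is not given, so the place of Setd1a in this order is uncertain.

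**Figure D1:**
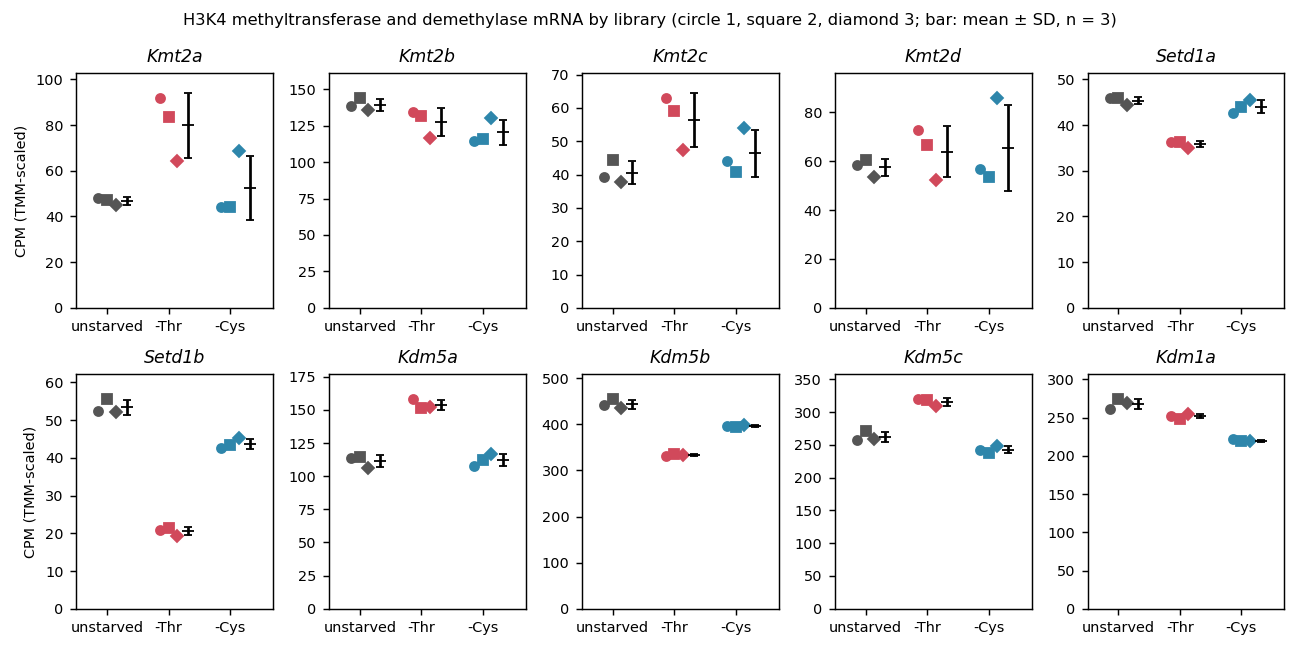
Level of each of the 10 genes in CPM (vertical axes, each from 0) in the 3 unstarved, 3 Thr-starved and 3 Cys-starved libraries, with the mean ± SD (n = 3) beside the points of each group. Setd1b sits at 19.4 to 21.3 CPM in Thr-starved libraries against 52.1 to 55.5 CPM in unstarved ones, and starved libraries numbered 3 (diamonds) depart from their groups for Kmt2a, Kmt2c and Kmt2d.

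Thr starvation changed 9 of the 10 genes, 4 upward (Kmt2a, Kmt2c, Kdm5a and Kdm5c) and 5 downward (Setd1b, Kdm5b, Setd1a, Kmt2b and Kdm1a), so that both methyltransferases and demethylases moved in both directions. Calls were made with edgeR's quasi-likelihood test at an adjusted p of 0.05 or less over 20143 genes. The same test called 63% of all genes in this comparison, 31.1% higher and 31.9% lower. Shares of all genes, here and below, cover every gene with at least 1 count. A share among genes with counts like those of the members was not taken. For 9 of the members the levels in Thr-starved and unstarved libraries were fully separate, as they were for 66.5% of all genes. The median log2 fold change was 0.03 over the 10 genes and -0.02 over all genes. Of the members, Setd1b alone was called with a change of at least 1 on the log2 scale, as were 13.2% of all genes.

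Cys starvation changed 5 of the 10 genes, all downward (Kdm1a, Setd1b, Kmt2b, Kdm5b and Kdm5c), and by smaller amounts. The test called 36.3% of all genes here, 17.5% higher and 18.8% lower. The groups did not overlap for the same 5 genes that were called, against 46.4% of all genes. None of the 10 was called higher by edgeR or by DESeq2, although Kmt2c had an unadjusted p of 0.045. No member was called with a log2 change of at least 1, against 1.47% of all genes. The median log2 fold change was -0.08 over the 10 genes and 0.01 over all genes. With the authors' size factors in place of TMM scaling, the split of all calls in Cys starvation moved from 3523 higher and 3790 lower to 2787 higher and 4786 lower, with no change in the calls of these 10 genes.

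The pair of SETD1 genes, which encode alternative catalytic subunits of one type of complex, moved unequally. Setd1b measured 52.4, 55.5 and 52.1 CPM in unstarved libraries 1 to 3, 21.0, 21.3 and 19.4 CPM in Thr-starved and 42.6, 43.3 and 45.3 CPM in Cys-starved libraries. None of the 3 groups overlapped, with the Thr-starved libraries lowest and the Cys-starved ones between. Setd1b fell by 1.38 on the log2 scale in Thr starvation (SE 0.044, adjusted p = 1.6e-17, edgeR), a level 2.60-fold lower, which was the largest change among the 10 genes. In Cys starvation it fell by 0.29 (SE 0.040, adjusted p = 5.8e-06), and the direct comparison of Thr with Cys gave a log2 difference of -1.09 (SE 0.044, adjusted p = 1.4e-15).

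Setd1a measured 45.8, 45.8 and 44.4 CPM in unstarved libraries, 36.3, 36.2 and 35.0 CPM in Thr-starved and 42.6, 43.9 and 45.4 CPM in Cys-starved libraries. The Thr-starved libraries were below all others, and the Cys-starved ones overlapped the unstarved ones. Setd1a fell by 0.34 on the log2 scale in Thr starvation (SE 0.037, adjusted p = 3.2e-08), while the value for Cys starvation was -0.05 (95% interval -0.12 to 0.03, adjusted p = 0.37). The Thr value turned to 0.09 (adjusted p = 0.033) when trends with G and C content and length were removed, and the Thr to Cys difference turned from -0.30 to 0.18. The ratio of Setd1b to Setd1a levels in CPM was 1.18 ± 0.033 (SD, n = 3) in unstarved, 0.574 ± 0.018 in Thr-starved and 0.995 ± 0.0066 in Cys-starved libraries, with no overlap between any of the groups. Setd1b was therefore the more counted of the pair in unstarved libraries and Setd1a in the Thr-starved ones. In the GENCODE M21 annotation, 54.1% of the 43-base stretches of the longest Setd1a transcript, 43 bases being the read length, also occur in transcripts of Gm49388, a gene model on the same strand that was not analysed here. How such reads were assigned is not given in the sources used here.

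Over the 9 libraries, the genes whose log2(CPM + 0.5) followed that of Setd1b most closely among 11409 genes that averaged 5 CPM or more were Mrps12 (Pearson r = 0.999), which encodes a mitochondrial ribosomal protein, and Rarg (r = 0.998), a retinoic acid receptor. The 9 libraries form 3 groups, and such r values mostly reflect the group means. The log2 changes of Mrps12 were -1.41 in Thr and -0.29 in Cys starvation, beside -1.38 and -0.29 for Setd1b. Rarg gave -1.35 and -0.27 in the same order.

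KMT2A and KMT2B are paralogs that share the partner menin, and in Thr starvation Kmt2a was called higher and Kmt2b lower, the latter in a direction that turned with the removal of base composition trends. Kmt2a measured 48.1, 47.4 and 44.9 CPM in unstarved libraries, 91.7, 83.7 and 64.3 CPM in Thr-starved and 44.2, 44.4 and 68.5 CPM in Cys-starved libraries. All Thr-starved libraries were above the unstarved ones, but Cys-starved library 3 lay far above the other 2 of its group and above Thr-starved library 3. Kmt2a rose by 0.76 on the log2 scale in Thr starvation (SE 0.12, adjusted p = 7.4e-06), a 1.70-fold increase that was the largest upward change among the members. For Cys starvation the value was 0.16 (95% interval -0.09 to 0.41, adjusted p = 0.35), and it turned to -0.08 without Cys-starved library 3 (adjusted p = 0.53). Thr-starved cells exceeded Cys-starved cells by 0.60 (SE 0.12, adjusted p = 1.2e-04), although the libraries overlapped.

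Kmt2b measured 138.6, 143.7 and 135.6 CPM in unstarved, 134.7, 131.7 and 116.5 CPM in Thr-starved and 114.8, 115.8 and 130.5 CPM in Cys-starved libraries. Both starved groups lay below the unstarved one, and they overlapped each other. Kmt2b fell by 0.21 on the log2 scale in Cys starvation (SE 0.046, adjusted p = 8.8e-04) and by 0.13 in Thr starvation (SE 0.046, adjusted p = 0.020). The second of these calls was not firm, since it was lost with DESeq2 (adjusted p = 0.15) and without Thr-starved library 3 (-0.06), unstarved library 2 (-0.10) or unstarved library 1 (-0.13, adjusted p = 0.052). Its direction turned when trends with G and C content and length were removed (0.41, adjusted p = 1.9e-11), or the G and C trend alone (0.22), so that it then moved the same way as Kmt2a (0.74 without both trends). The Kmt2a to Kmt2b ratio in CPM was 0.336 ± 0.0095 (SD, n = 3) in unstarved, 0.623 ± 0.066 in Thr-starved and 0.431 ± 0.082 in Cys-starved libraries. No groups overlapped, with the Cys-starved libraries (0.385, 0.383 and 0.525) between the others.

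Of the enhancer monomethyltransferases, Kmt2c rose in Thr starvation and Kmt2d was not called in any comparison. Kmt2c measured 39.4, 44.5 and 37.8 CPM in unstarved, 62.9, 59.2 and 47.4 CPM in Thr-starved and 44.1, 40.8 and 54.1 CPM in Cys-starved libraries. The Thr-starved libraries were above the unstarved ones, while the Cys-starved group overlapped both. The log2 rise in Thr starvation was 0.47 (SE 0.088, adjusted p = 7.1e-05). In Cys starvation the log2 value was 0.19 (95% interval 0.01 to 0.37, adjusted p = 0.10), and it passed the threshold without unstarved library 2 (0.26), Cys-starved library 2 (0.27) or Thr-starved library 3 (0.19). The Thr to Cys difference of 0.28 (SE 0.087, adjusted p = 0.0079) missed it without Cys-starved library 2 (0.20) or Thr-starved library 1 (0.20) and in DESeq2 (adjusted p = 0.079).

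Kmt2d measured 58.5, 60.3 and 53.7 CPM in unstarved, 72.6, 66.8 and 52.3 CPM in Thr-starved and 56.9, 53.4 and 85.7 CPM in Cys-starved libraries. Both starved groups overlapped the unstarved one. Its log2 value was 0.14 in Thr starvation (95% interval -0.11 to 0.39, adjusted p = 0.32) and 0.18 in Cys starvation (-0.07 to 0.43, adjusted p = 0.26). Without Thr-starved library 3 the first value was 0.28 and was called (adjusted p = 0.041), and without Cys-starved library 3 the second was -0.06. The ratio of Kmt2c to Kmt2d in CPM was 0.705 ± 0.032 (SD, n = 3) in unstarved and 0.887 ± 0.020 in Thr-starved libraries with no overlap, and 0.723 ± 0.080 in Cys-starved libraries, so that this ratio varied less among the Thr-starved libraries than the level of either gene.

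For Kmt2a, Kmt2c and Kmt2d the spread lay mainly in the starved libraries numbered 3. Cys-starved library 3 was 1.55 times the mean of the other 2 Cys-starved libraries for Kmt2a, 1.27 times for Kmt2c and 1.55 times for Kmt2d. Thr-starved library 3 went the other way, at 0.733, 0.777 and 0.751 times. Among 11405 genes that averaged 5 CPM or more, 28 (0.246%) lay at least 0.2 above their group mean on the log2 scale in the former library and at least 0.2 below it in the latter, a rule set after these values were seen. Those 28 included these 3 members, and 22 of them had a longest transcript of at least 10 kb, with a median of 15.3 kb against 3.14 kb over all the genes. The median deviation of all 267 genes with such transcripts was 0.09 in Cys-starved library 3 and -0.07 in Thr-starved library 3. The longest annotated transcripts of Kmt2a, Kmt2c and Kmt2d are 16.5, 15.0 and 19.8 kb, while among the other members only Kdm5a (10.9 kb) exceeds 10 kb. The part of transcript length in these values was not tested. With both of these libraries left out, a choice also made after seeing them, the Thr log2 values were 0.91 for Kmt2a, 0.59 for Kmt2c and 0.28 for Kmt2d, all called, and the Cys values were -0.08, 0.06 and -0.06, none called.

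**Figure D2:**
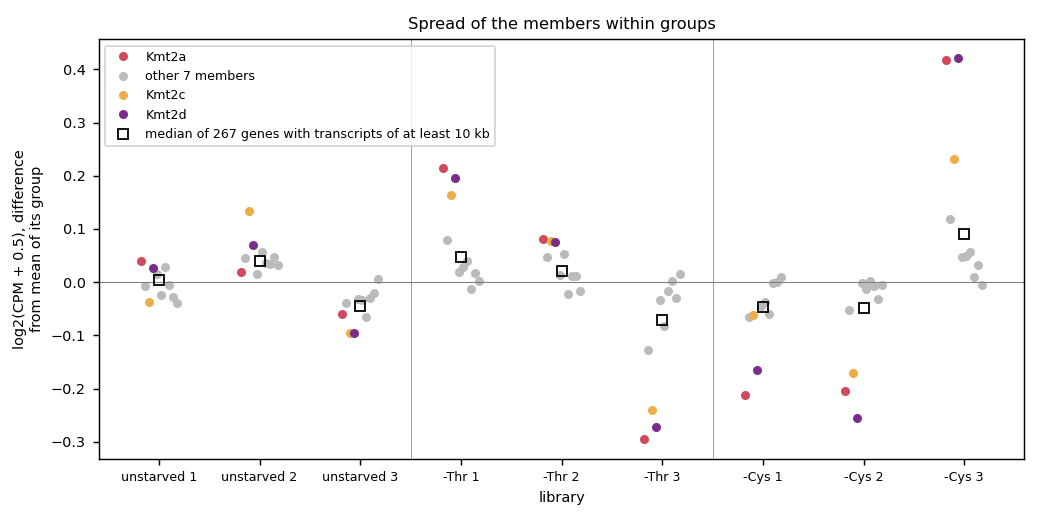
Deviation of log2(CPM + 0.5) from the mean of its own group (vertical axis) in each of the 9 libraries (horizontal axis), for Kmt2a, Kmt2c, Kmt2d, the other 7 members (grey) and the median of the 267 genes with transcripts of at least 10 kb (open squares). Kmt2a and Kmt2d reach 0.42 in Cys-starved library 3 and lie at -0.30 and -0.27 in Thr-starved library 3, while the squares stay between -0.07 and 0.09.

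The KDM5 demethylases divided in Thr starvation, with Kdm5a and Kdm5c higher and Kdm5b lower. Kdm5a measured 113.6, 114.2 and 106.5 CPM in unstarved, 158.0, 151.4 and 152.0 CPM in Thr-starved and 107.8, 112.4 and 116.9 CPM in Cys-starved libraries. The Thr-starved libraries were above all 6 others, and the unstarved and Cys-starved ones overlapped. Kdm5a rose by 0.46 on the log2 scale in Thr starvation (SE 0.032, adjusted p = 1.8e-11), a 1.38-fold increase. In Cys starvation its value was 0.01 (95% interval -0.06 to 0.08, adjusted p = 0.83). The difference between the starvations was 0.45 (SE 0.032, adjusted p = 3.1e-11). Exons of Kdm5a share 251 bases with Ccdc77 on the opposite strand, a small share of its 14.2 kb of exon, and whether reads were counted by strand is not given in the sources used here.

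Kdm5b, the KDM5 gene with the most counts in every library, measured 442.3, 454.3 and 434.9 CPM in unstarved, 330.8, 336.3 and 334.2 CPM in Thr-starved and 395.7, 394.3 and 399.0 CPM in Cys-starved libraries. The 3 groups were separate from each other, and the starved groups had a coefficient of variation of 0.837% (Thr) and 0.611% (Cys). Kdm5b fell by 0.41 on the log2 scale in Thr starvation (SE 0.021, adjusted p = 7.7e-14) and by 0.16 in Cys starvation (SE 0.021, adjusted p = 1.9e-06). The Thr-starved level was below the Cys-starved one by a log2 difference of -0.25 (SE 0.021, adjusted p = 6.4e-10).

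Kdm5c, the X-linked member, measured 256.9, 270.7 and 258.2 CPM in unstarved, 319.4, 317.9 and 309.1 CPM in Thr-starved and 242.4, 237.0 and 247.9 CPM in Cys-starved libraries. The groups did not overlap, with the Thr-starved libraries highest and the Cys-starved ones lowest. Kdm5c was called in opposite directions in the 2 starvations, with a rise of 0.27 on the log2 scale in Thr (SE 0.025, adjusted p = 3.0e-09) and a fall of 0.11 in Cys (SE 0.025, adjusted p = 0.0012). In the same fit, no other member was called in opposite directions. With G and C and length trends removed, Kmt2b and Setd1a were also called higher in Thr (0.41 and 0.09) and lower in Cys starvation. The direct Thr to Cys difference of Kdm5c was 0.38 (SE 0.025, adjusted p = 8.7e-12). Its Y-linked paralog Kdm5d was not analysed here, and no 43-base stretch of the longest Kdm5c transcript occurs in transcripts of another gene in the annotation.

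The balance within the KDM5 family shifted accordingly. The Kdm5a to Kdm5b ratio in CPM was 0.251 ± 0.0061 (SD, n = 3) in unstarved, 0.461 ± 0.015 in Thr-starved and 0.283 ± 0.010 in Cys-starved libraries. The Kdm5c to Kdm5b ratio was 0.590 ± 0.0082, 0.945 ± 0.020 and 0.612 ± 0.010 in the same order. Both ratios were higher in every Thr-starved library than in any other library.

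Kdm1a, which encodes the demethylase LSD1 and acts in CoREST complexes, fell in both starvations and by more without Cys than without Thr. It measured 260.7, 273.9 and 269.0 CPM in unstarved, 252.1, 248.8 and 254.6 CPM in Thr-starved and 221.6, 219.3 and 219.2 CPM in Cys-starved libraries. The groups did not overlap, and the Cys-starved libraries were the lowest. Kdm1a fell by 0.28 on the log2 scale in Cys starvation (SE 0.023, adjusted p = 2.3e-09) and by 0.09 in Thr starvation (SE 0.023, adjusted p = 0.0020). The Thr call held in 9 of 9 fits without 1 library and in 11 of 15 other settings, with values of -0.097 to -0.0042 in the latter. That call was lost without the G and C and length trends. The level in Thr starvation exceeded that in Cys starvation by 0.19 (SE 0.023, adjusted p = 1.5e-07).

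Compared with each other, the starvations differed for 8 of the 10 genes. Kmt2a, Kdm5a, Kdm5c, Kmt2c and Kdm1a were higher in Thr-starved cells, and Setd1b, Setd1a and Kdm5b were lower. In this comparison 62% of all genes were called, 30.4% higher and 31.6% lower, and Setd1b was the member called with a log2 difference of at least 1, against 11.4% of all genes. Levels were fully separate between the 2 starvations for 6 of the members and for 65.8% of all genes, and the 2 called genes whose libraries overlapped were Kmt2a and Kmt2c. For Kmt2b the log2 difference was 0.08 (95% interval -0.01 to 0.18, adjusted p = 0.13), and it was called without Cys-starved library 3 (0.14) or Thr-starved library 3 (0.15). For Kmt2d it was -0.04 (-0.29 to 0.21, adjusted p = 0.80), and it turned to 0.20 without Cys-starved library 3 (adjusted p = 0.035).

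**Figure D3:**
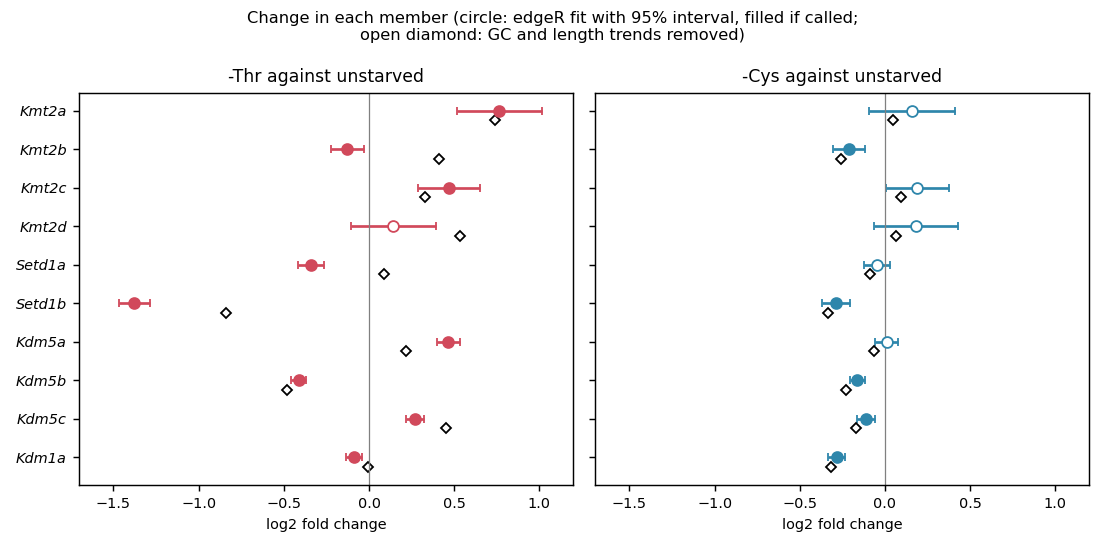
Log2 fold change (horizontal axes) of each of the 10 genes in Thr starvation (left) and Cys starvation (right) against the same unstarved libraries, with 95% intervals from the edgeR fit and filled circles for called genes. Open diamonds give the value after removal of GC and length trends, which moves Kmt2b from -0.13 to 0.41 and Setd1a from -0.34 to 0.09 in Thr starvation and leaves Setd1b at -0.84.

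Base composition moved with the Thr result across the genes that averaged 5 CPM or more, to which the ranges below are limited. The median log2 change in Thr starvation was 0.24 over 1461 genes with a longest transcript below 42% G and C and -0.27 over 917 genes at 58% or more, with medians falling through the ranges between. In Cys starvation the medians of the same ranges lay between -0.04 and 0.04. The member with the lowest share of G and C is Kdm5a (43.3%), which rose, and the 4 highest are Kmt2b (59.1%), Setd1b (59.0%), Kmt2d (58.4%) and Setd1a (57.0%), of which 3 were called lower. When the trends with G and C content and length were removed within each library, Setd1b was still lower at -0.84 (adjusted p = 1.5e-16), and Kdm5b at -0.48, Kmt2a at 0.74, Kmt2c at 0.33, Kdm5a at 0.22 and Kdm5c at 0.45 kept their direction and call. Kmt2b and Setd1a reversed in Thr starvation, to 0.41 (adjusted p = 1.9e-11) and 0.09 (adjusted p = 0.033), Kmt2d was called higher at 0.54 and the fall of Kdm1a was lost at -0.01 (adjusted p = 0.83). The 5 calls of Cys starvation all kept their direction, with values between -0.17 (Kdm5c) and -0.33 (Setd1b). Setd1a was then called lower there too, which made 6 calls. Whether the trend belongs to the libraries or to the response of the cells was not tested.

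**Figure D4:**
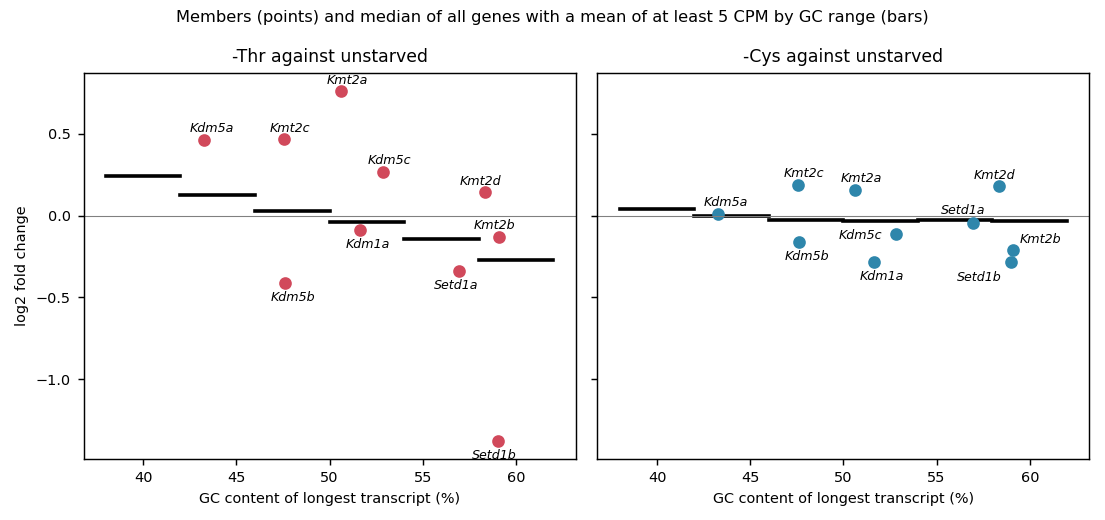
Log2 fold change (vertical axis) of the 10 genes (points) against the percentage of G and C in their longest transcript (horizontal axis), for Thr starvation (left) and Cys starvation (right). Black bars give the median of all genes averaging 5 CPM or more in each range, the outer bars also covering genes beyond 38 and 62%, and fall from 0.24 to -0.27 in Thr starvation while staying near 0 in Cys starvation.

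The proteins that work with these enzymes were counted in lists chosen by function. Of 14 tested subunits of the methyltransferase complexes, 11 rose, 1 fell and 2 were not called in Thr starvation (median log2 change 0.26). Of all genes, 31.1% were higher and 31.9% lower there. In Cys starvation 5 rose, 6 fell and 3 were not called (median 0.02), against 17.5% of all genes higher and 18.8% lower. Of the core subunits shared by all the complexes, Ash2l rose in both starvations (0.34 and 0.12 on the log2 scale, adjusted p = 6.5e-13 and 3.4e-05) and Dpy30 rose in Thr (0.30) and fell in Cys starvation (-0.20, adjusted p = 2.4e-06). Wdr5 gave -0.04 in Thr starvation (adjusted p = 0.22) and fell by 0.15 in Cys starvation (adjusted p = 5.6e-05). Rbbp5 rose in Cys starvation by 0.41 (adjusted p = 6.9e-11), the largest increase of the list there, and gave 0.03 in Thr starvation (adjusted p = 0.35).

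Among subunits held by some of the complexes, most rose in Thr starvation and were called in either direction in Cys starvation. Wdr82, which tethers SETD1 complexes to RNA polymerase II, gave 0.17 in Thr and -0.06 in Cys starvation (adjusted p = 1.1e-06 and 0.041). Men1 (menin), the partner of KMT2A and KMT2B, was the 1 subunit that fell in Thr starvation, by 0.52 (SE 0.030, adjusted p = 7.6e-13), and it fell by 0.16 in Cys starvation (adjusted p = 1.3e-04). Psip1, which binds menin and chromatin, gave 0.13 in Thr and -0.07 in Cys starvation (adjusted p = 2.7e-05 and 0.021). Hcfc2 rose most, by 1.61 in Thr (SE 0.078, adjusted p = 2.4e-14) and 0.30 in Cys starvation (adjusted p = 0.0061). Its mean level in unstarved libraries was 5.67 CPM. In the KMT2C and KMT2D complexes, the H3K27 demethylase gene Kdm6a rose by 0.62 and 0.14 and the coactivator Ncoa6 by 0.54 and 0.20 in Thr and Cys starvation, while Paxip1 gave 0.08 and -0.09, all called.

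Of 13 partners of LSD1 and the KDM5 enzymes, 5 were higher and 7 lower in Thr starvation (median -0.14), against 31.1% and 31.9% of all genes. In Cys starvation 1 was higher and 6 lower (median -0.08), against 17.5% and 18.8% of all genes. Rcor2, the CoREST paralog abundant in ES cells, fell by 1.57 on the log2 scale in Thr starvation (SE 0.037, adjusted p = 8.7e-20), a larger fall than that of any of the 10 enzymes, and gave -0.08 in Cys starvation (adjusted p = 0.075). Rcor1, which encodes CoREST itself, fell in both (-0.30 in Thr and -0.34 in Cys, adjusted p = 2.1e-06 and 1.5e-06). Hdac2, a histone deacetylase gene of the list, rose by 0.35 in Thr starvation (adjusted p = 2.3e-11) and fell by 0.10 in Cys starvation (adjusted p = 0.0038). Hdac1, the other, rose by 0.20 in Thr starvation (adjusted p = 3.5e-07) and gave -0.06 in Cys starvation (adjusted p = 0.077).

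Other enzymes reported to act on H3K4 numbered 7 tested, of which 2 rose and 2 fell in Thr starvation, where 63% of all genes were called, and none was called by edgeR or DESeq2 in Cys starvation, where 36.3% were. Kdm1b, the paralog of Kdm1a that acts in oocytes and on gene bodies, fell by 1.17 on the log2 scale in Thr starvation (SE 0.058, adjusted p = 3.7e-14) against 0.09 for Kdm1a, and gave -0.06 in Cys starvation (adjusted p = 0.38). Smyd1, best known from muscle, rose by 1.97 (SE 0.13, adjusted p = 5.8e-12) from a low mean level of 1.53 CPM in unstarved libraries. Of 14 readers of the mark, 5 rose and 6 fell in Thr starvation and 5 rose and 4 fell in Cys starvation, beside the same 63% and 36.3% of all genes called. The extremes in Thr starvation were Taf3, the TFIID subunit that binds H3K4me3 (0.59), and Dido1 (-0.80), and those in Cys starvation were Ing3 (0.28) and Phf13 (-0.41).

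The genes for methyl donor supply, 7 in all, included 5 that fell and none that rose in Thr starvation (median -0.28). Of all genes, 31.9% were lower and 31.1% higher there. Mat2a, which makes S-adenosylmethionine, had a log2 change of -1.37 (SE 0.030, adjusted p = 2.0e-20) and Tdh, the Thr dehydrogenase gene, one of -0.65 (SE 0.022, adjusted p = 4.7e-17). In Cys starvation 3 fell and 1 rose, against 18.8% of all genes lower and 17.5% higher. Tdh gave -0.25 there, Mat2a -0.19 and Mtr, the methionine synthase gene, 0.16. Mtr gave 0.10 in Thr starvation (adjusted p = 0.059), and the count of 0 that rose there became 1 under 9 of 24 other settings, DESeq2, other scalings and 3 of the fits without 1 library among them.

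Enzymes for other histone lysines were counted beside all genes, of which 31.1% were higher and 31.9% lower in Thr starvation and 17.5% and 18.8% in Cys starvation. Among 17 methyltransferases, 9 rose and 4 fell in Thr starvation (median 0.10), with Nsd3 at 1.06 and Ehmt2, a H3K9 methyltransferase gene, at -1.12, and 5 rose and 3 fell in Cys starvation, with Setdb2 at 0.17 and Ehmt2 at -0.32. Ezh2, the H3K27 methyltransferase of Polycomb, was higher in Thr-starved than in Cys-starved cells by 1.02 (SE 0.021, adjusted p = 1.2e-20). Among 12 demethylases, 6 rose and 5 fell in Thr starvation (median 0.22), with Uty at 1.05 and Kdm2b at -1.19, and 5 rose and 5 fell in Cys starvation, with Kdm4a at 0.28 and Kdm2a at -0.28. Between the starvations, 12 of 14 complex subunits were higher in Thr and 2 lower, against 30.4% and 31.6% of all genes, and the largest differences in the H3K4 lists were Hcfc2 (1.31), Smyd1 (1.64), Rcor2 (-1.49), Kdm1b (-1.11) and Dido1 (-0.94), with Chd1, a chromatin remodeler that binds H3K4me3, at 0.45.

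**Figure D5:**
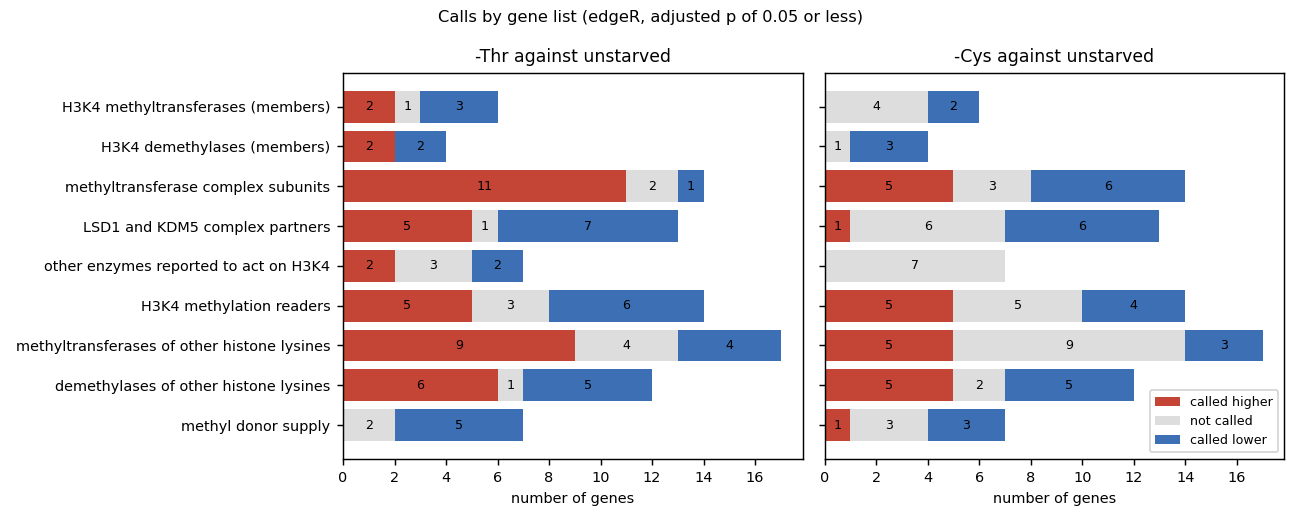
Number of genes called higher, not called and called lower (horizontal axes) in Thr starvation (left) and Cys starvation (right) for the 6 methyltransferases, the 4 demethylases and the 7 lists of related genes. The complex subunits hold 11 higher and 1 lower in Thr starvation, and the other enzymes reported to act on H3K4 hold no call in Cys starvation.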

How the data were processed

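Poly(A) RNA of 9 libraries of wild-type E14 ES cells (3 unstarved, 3 Thr-starved, 3 Cys-starved) was analysed, grouped by sample title. The authors mapped read pairs to GRCm38 with STAR 2.7.4a and counted them per gene with HTSeq, per the submitters' processing notes and the study's methods, and deposited the counts without normalization. The authors also deposited signal values, which are the same counts divided by 1 DESeq2 size factor per library, and these gave the size factors of an alternative. HTSeq's strand and overlap settings are not given in the sources used here. Of values from 1 to 20 in the count table, 67.8% were even, and the chi-square between replicates was 1.98 to 2.13 per gene, or 0.99 to 1.07 with counts halved, so each fragment may have entered as 2 reads, and halved counts were an added alternative. Of 20189 genes, 46 were at 0 in all libraries.

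Tests were run in R 4.3.3 with edgeR 4.0.16 (TMM scaling, quasi-likelihood F test, 1 fit over all 9 libraries) on the 20143 genes with at least 1 count, with Benjamini-Hochberg adjustment per comparison and calls at 0.05 or less. CPM values are TMM-scaled. Nothing states that libraries of a group came from separate cultures, so p-values measure only the spread between these libraries. No set test was run, and lists are given by counts and medians. On simulated counts for Thr against unstarved libraries (20143 genes, 200 of them changed), edgeR recovered 74% of 1.25-fold and 96% of 1.5-fold changes with 6 false calls. The simulated spread followed the trend over all genes. The shares recovered need not hold for Kmt2a, Kmt2c and Kmt2d, whose SEs in Thr starvation (0.12, 0.088 and 0.12) were the largest of the members. The members and lists were chosen with earlier results of these data known. Beside the 10 members, the text names the called gene with the largest rise and fall of each list in each comparison (mean of at least 1 CPM, libraries not overlapping), the complex subunits called in both starvations and the genes most like Setd1b (the top 3 by correlation). Some genes that this rule selects are not reported here. Members named in other lists for comparison, Hdac1, the marker genes given singly, and Tdh, Mat2a and Rcor1 in the other starvation were chosen after their values were seen. Gene positions, lengths and G and C content came from GENCODE M21, and upstream sequences from RefSeq (GRCm38.p6). The gene of each member in GRCm38 is given by its identifier, chromosome and position as follows. Kmt2a (ENSMUSG00000002028) lies at chr9:44803355-44881296 on the minus strand. Kmt2b (ENSMUSG00000006307) lies at chr7:30568858-30588726 on the minus strand. Kmt2c (ENSMUSG00000038056) lies at chr5:25271798-25498783 on the minus strand. Kmt2d (ENSMUSG00000048154) lies at chr15:98831669-98871204 on the minus strand. Setd1a (ENSMUSG00000042308) lies at chr7:127776670-127800122 on the plus strand. Setd1b (ENSMUSG00000038384) lies at chr5:123142193-123168629 on the plus strand. Kdm5a (ENSMUSG00000030180) lies at chr6:120364124-120444574 on the plus strand. Kdm5b (ENSMUSG00000042207) lies at chr1:134560171-134635285 on the plus strand. Kdm5c (ENSMUSG00000025332) lies at chrX:152233020-152274535 on the plus strand. Kdm1a (ENSMUSG00000036940) lies at chr4:136550540-136602723 on the minus strand. Alternatives were DESeq2 1.42.0, RLE and deposited size factors, other count filters, thinning to 48763102 counts, only the 2 groups compared, a replicate block, removal of G and C and length trends by loess (span 0.3), stricter thresholds and leaving out each library. Removal of either trend alone, halving of counts and leaving out both starved libraries numbered 3 were added after seeing the data.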

Additional observations from a re-analysis of the deposited data

How the results depend on the processing

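Each member had at least 1018 counts in each library. Of 90 values per comparison from leaving out 1 library, 86 (Thr), 83 (Cys) and 84 (Thr against Cys) kept direction and call, and of 150 values from the other settings, 129, 135 and 130 did. Members called higher in Thr starvation (4) became 7 without G and C and length trends and 0 at a log2 change of at least 1. Those called lower (5) became 2 without both trends, 3 without the G and C trend alone and 1 at a log2 change of at least 1. In Cys starvation the count called higher (0) was 1 in the fit of only the 2 groups and 0 to 1 when 1 library was left out. The count called lower (5) there was 0 at a log2 change of at least 1. It was 6, with Setd1a added, without both trends or without the length trend alone. For Thr against Cys, the count higher (5) was 8 without both trends and 0 at a log2 change of at least 1, and the count lower (3) was 1 at that change. The causes were not tested, except that the fold threshold removes small changes by construction.

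Directions turned as follows. In Thr starvation, Kmt2b went to 0.41 without both trends and 0.22 without the G and C trend, Setd1a to 0.088 without both, and Kmt2d to -0.12 without the length trend. In Cys starvation, Kmt2a (0.16) ranged from -0.081 to 0.27 and Kmt2d (0.18) from -0.061 to 0.31 when 1 library was left out, and without both starved libraries numbered 3 they gave -0.081 and -0.061. Kdm5a (0.01) gave -0.030 with deposited size factors, -0.067 without both trends, -0.011 without the G and C trend, -0.071 without the length trend, -0.018 without both libraries numbered 3 and -0.020 to 0.041 when 1 library was left out. For Thr against Cys, Kmt2d (-0.04) gave 0.0055 with deposited size factors, 0.47 without both trends, 0.28 without the G and C trend, 0.34 without both libraries numbered 3 and -0.17 to 0.20 when 1 library was left out, and Setd1a gave 0.18 without both trends. Counts in the 7 lists moved by over 1.5 times in 38 of 42 cases at a log2 change of at least 1, in 7 of 42 without both trends and in 0 to 3 under each other setting.

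The titles number libraries 1 to 3 in each group without saying that a number marks a shared batch. Deviations of same-numbered libraries over 11410 genes correlated at 0.106, -0.073 and 0.010 between Thr and unstarved libraries, and 1 of 9 libraries correlated best with its own number. With the number as a replicate block, 4 members were higher and 5 lower in Thr starvation, 0 and 5 in Cys starvation and 5 and 3 in Thr against Cys, and no call of a member changed. Of the 42 list counts, 3 differed, each by 1 gene: readers higher in Cys starvation (4 for 5), complex subunits lower in Cys starvation (5 for 6) and methyltransferases of other lysines higher in Thr starvation (8 for 9).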
